A study of Drosophila melanogaster with 6 samples.

Results

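Isolated narrow GAF peaks are short stretches of chromatin bound by GAGA factor that stand alone on the large autosomal arms. Each was chosen by 2 measured values of the authors' peak list, its width and its distance to the neighbouring peaks. A peak was taken when it lay on 2L, 2R, 3L or 3R, was narrower than 2000 bp, and had at least 15000 bp without a listed peak on both sides. The first and last peak of each arm were left out. The rule found 661 peaks among the 5957 on these arms, which is 11.1% of them (95% Wilson interval 10.3 to 11.9), and among 11713 in the whole list. All intervals cover counting error only and treat peaks as independent.

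The study profiled GAF by ChIP-seq in whole embryos aged 8 to 16 h, which pool all embryonic cell types. The 6 libraries were 3 of GAF ChIP DNA, made with the rabbit polyclonal antibody KW3-Trl-D2, and 3 of input DNA. All embryos were of the strain y cn bw sp and were fixed in 1.8% formaldehyde for 15 min. Its listed alleles are the visible markers y[1], bw[1], cn[1] and sp[1], together with oc[R3.2], lab[R4.2] and CG33964[R4.2], and further Rh6[1], GstD5[1], MstProx[1], LysC[1], Gr22d[1] and Gr22b[1]. The deposited list gives 1 position and 1 score per peak and no value per library, so no value below has a replicate error and the depth is unknown. The authors' score is a positive number whose scale is not given in the sources used here. Its differences are therefore read as order and distance within this list, not as multiples of binding.

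GAF, the product of Trl, carries a BTB domain, through which its molecules join, and a zinc finger that reads GA-rich DNA. It recruits chromatin remodellers that open promoters and enhancers, and it is known from promoters with paused RNA polymerase and from Polycomb response elements. Bound sites that lie near each other can be held by many GAF molecules together, whereas a lone site has no listed partner close by.

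Isolated narrow peaks covered nearly the whole range of strength, with a higher median than the other narrow peaks. Their scores ran from 8.65 to 2174.57, with a median of 141 (95% order-statistic interval 115 to 165) and quartiles of 44.2 and 440.0. The 4835 other narrow peaks of the same arms had a median score of 43.0 (39.6 to 47.4) and quartiles of 15.4 and 259. The 461 broad peaks, 2000 bp or wider, had a median of 1082 (1022 to 1133). Isolated narrow peaks thus lay above the other narrow peaks and far below the broad ones. Score, width and spacing all come from the same peak calls. These differences are given as descriptions, and none was tested.

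Scores of isolated peaks were higher than those of the other narrow peaks at both ends of the range. Among isolated peaks, 81 of 661 scored under 20, a share of 12.3% (10.0 to 15.0). Among the other narrow peaks the share was 33.9% (32.6 to 35.2). At the other end, 231 isolated peaks, 34.9% (31.4 to 38.7), scored 300 or more, against 22.7% (21.6 to 23.9) of the other narrow peaks. Scores of 1000 or more were held by 41 isolated peaks, 6.20% (4.61 to 8.31), against 3.66% (3.17 to 4.23).

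The other narrow peaks were of 2 kinds by spacing. Those in tight groups, with a neighbour closer than 1000 bp, numbered 2466 and had a median score of 23.4 (22.0 to 24.5). The 2369 between tight and isolated had a median of 82.9 (74.2 to 92.8). Scores under 20 made up 45.0% of the tight groups and 22.4% of the peaks between. The order of the 3 spacing classes was therefore isolated, between and tight, and no pair of their intervals overlapped.

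**Figure D1:**
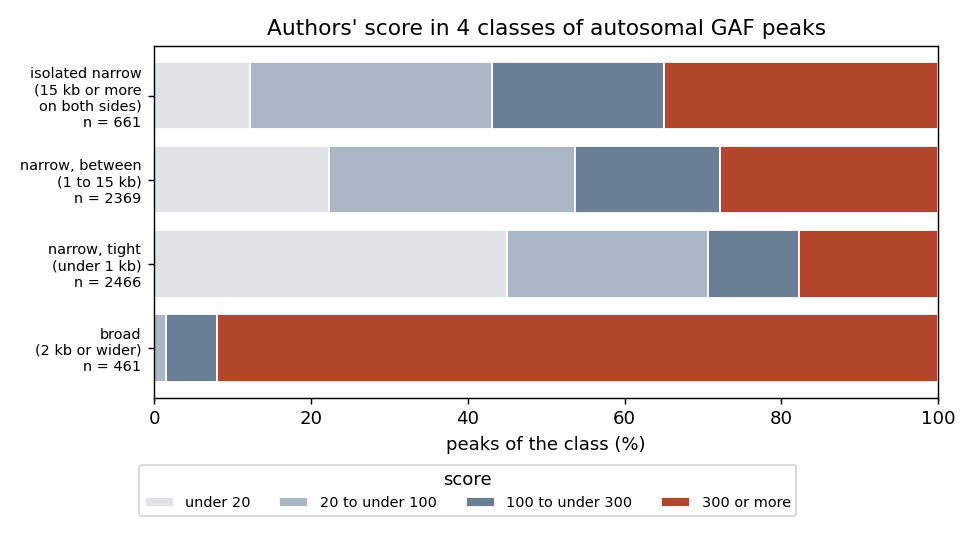
Share of peaks, in percent on the horizontal axis, in 4 ranges of the authors' score for 4 classes of autosomal GAF peaks, with the number of peaks beside each bar. Peaks under 20 make up 12.3% of the isolated narrow class and 45.0% of the tight class, and broad peaks scored 300 or more in 92.0%.

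Against the quartiles of all autosomal scores, isolated peaks were rarest in the lowest quartile and most frequent in the third. In the lowest quartile, with scores up to 17.5, 67 of 1505 peaks were isolated, or 4.45% (3.52 to 5.62). In the second quartile the share was 10.9% (9.41 to 12.6). The third, with scores from 67.3 to 394, had 243 of 1486, or 16.4% (14.6 to 18.3). The highest quartile had 12.8% (11.2 to 14.6). The quartiles include the 461 broad peaks, which the width limit bars from the isolated narrow class. Of these, 424 (92.0%) scored 300 or more, so the limit lowers the share in the highest quartile above all. Whether the lower share there than in the third quartile goes with isolation was not tested. Of the 100 lowest-scoring autosomal peaks 0 were isolated, which allows a share of up to 3.70% by the Wilson interval. Of the 100 highest-scoring autosomal peaks, 9 were isolated and narrow, while 29 were narrow at all.

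The median score of narrow peaks rose mainly over the first few kb of distance to the nearest neighbour. Across the isolated peaks, score and distance were nearly unrelated. The median score was 23.0 for the 1817 narrow peaks with a gap under 500 bp and 30.9 (23.0 to 39.5) at 1000 to 2000 bp. It was 81.2 (68.9 to 98.2) at 2000 to 5000 bp and 127 (108 to 145) at 5000 to 10000 bp. At 10000 to 15000 bp, just below the limit, it was 104 (91.2 to 143). Isolated peaks with a gap of 15000 to 20000 bp had a median of 151 (104 to 194). Those with 50000 bp or more on both sides, 70 peaks, had a median of 98.3 (62.7 to 208). From 5000 bp upward the intervals of all classes overlapped.

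Whether the limit of 15000 bp marks a step in score was not tested, and overlapping intervals cannot show that there is none. The share of peaks under 20 changed mostly at short distances. It was 43.4% at 1000 to 2000 bp, 18.6% at 2000 to 5000 bp and between 10.7 and 14.5% in every class from 5000 bp on. Across the 661 isolated peaks, the Spearman rho of score with the smaller gap was -0.02, and that with the larger gap was 0.00. These describe peaks of 1 list that share their libraries.

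**Figure D2:**
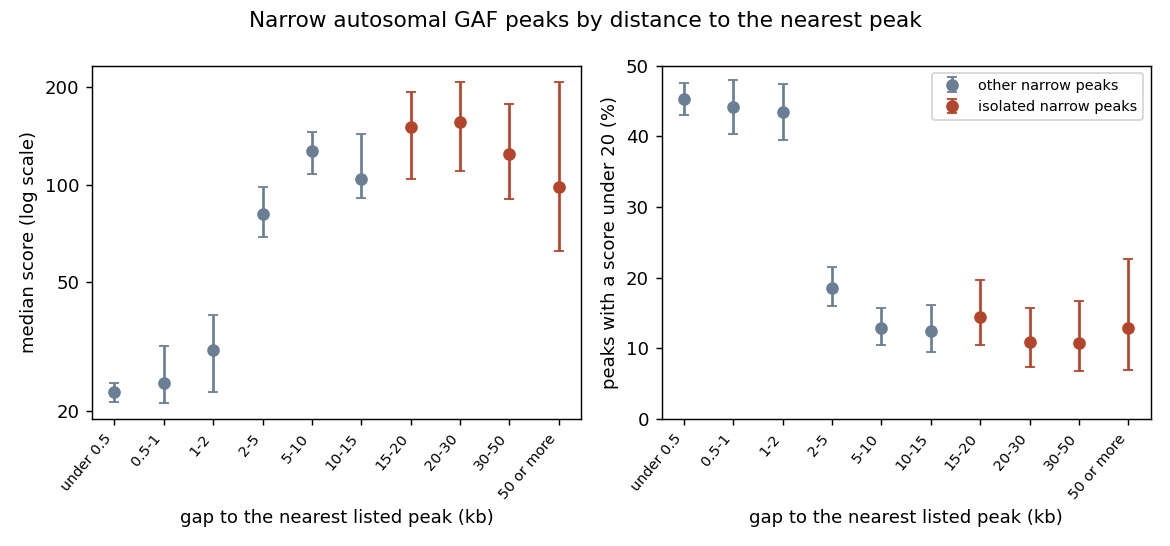
Median score on a log axis (left) and percent of peaks scoring under 20 (right) for narrow autosomal peaks in 10 classes of the gap to the nearest listed peak in kb, with 95% intervals. Both measures change between the class of 1 to 2 kb and that of 5 to 10 kb. Among the isolated peaks the median goes from 151 at 15 to 20 kb to 98.3 at 50 kb or more, with overlapping intervals.

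Isolated peaks were slightly wider than the other narrow ones at the median and the quartiles, but not at the upper end. The narrowest was 200 bp and the widest 1949 bp. The median width was 555 bp (512 to 586), and the quartiles were 375 and 864 bp. The median of the other narrow peaks was 485 bp (471 to 498), with quartiles of 323 and 812 bp. The width that 90% of peaks stayed under was 1231 bp for isolated and 1286 bp for other narrow peaks. Wider isolated peaks scored higher, with a Spearman rho of 0.89 across the 661 peaks, against 0.81 across 4829 other narrow peaks.

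At like width, isolated peaks still scored higher. In each of 8 width classes the median score of isolated peaks was above that of the other narrow peaks, and in 5 of the 8 the intervals did not overlap. At 300 to 399 bp the medians were 45.6 (37.0 to 54.0) and 21.3 (19.7 to 23.6). At 400 to 599 bp they were 113 (98.2 to 141) and 58.2 (52.9 to 63.7), and at 600 to 799 bp 304 (267 to 372) and 162 (137 to 193). At 1500 to 1999 bp they were 890 (801 to 1111) and 737 (678 to 823), with overlapping intervals. Of all isolated peaks, 521 of 661, or 78.8% (75.5 to 81.8), scored above the median of the other narrow peaks of their width class. On single arms this share ran from 76.5% on 2R to 81.0% on 2L.

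The difference was smaller where weak or tightly grouped peaks were left out. Against the peaks between tight and isolated alone, 64.1% (60.4 to 67.7) of isolated peaks lay above the median of their width class. Isolated medians were higher there too in 8 of 8 classes, but the intervals were apart in only 3. When peaks under 20 were removed from both sets, 396 of 580 isolated peaks, 68.3% (64.4 to 71.9), lay above. When such weak peaks were removed from the list before spacing was measured, 771 peaks were isolated and the difference in median score from the other narrow peaks fell to 38.4, with bounds of -0.64 and 76.0 from the 2 medians' intervals, against 98.3 in the whole list.

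**Figure D3:**
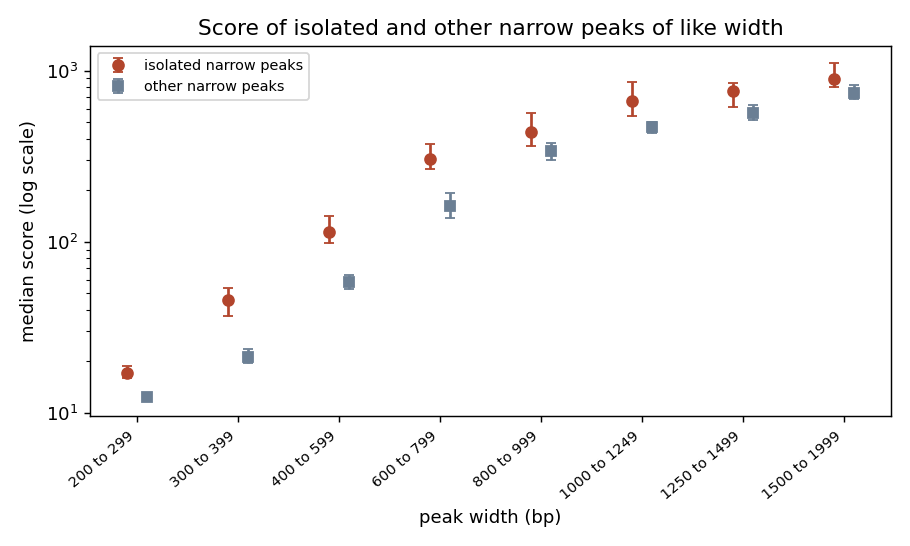
Median score on a log axis with 95% intervals for isolated narrow peaks (circles) and other narrow peaks (squares) in 8 classes of peak width in bp. The isolated median is above the other in all 8 classes, for example 113 against 58.2 at 400 to 599 bp.

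Coordinates are on FlyBase release 5 and counted from 1, and what genes lie at these positions was not analysed here. The highest-scoring isolated peak was also the highest of all autosomal peaks. It lay on 2L from 14489818 to 14491373, was 1556 bp wide and scored 2174.57, with 20918 bp free on one side and 89605 bp on the other. The next isolated peak, on 3L from 5968782 to 5970155, scored 1723.74 and ranked 38 among autosomal peaks. It was followed by 2L 21898847 to 21900033 with 1714.6. The highest on 2R, from 16988791 to 16989872, scored 1697.61, and the highest on 3R, from 11798973 to 11800470, scored 1592. The 12 highest scored 1364.62 or more and lay 5 on 2L, 5 on 3L, 1 on 2R and 1 on 3R. Of these, 2 were under 1000 bp wide, on 3L from 4975969 to 4976908 (940 bp, score 1568.57) and from 13106640 to 13107614 (975 bp, score 1518.87).

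The weakest isolated peaks included some with little free sequence beside them and some with much. The lowest score, 8.65, belonged to 3L 9520129 to 9520570, with 17597 and 19001 bp free beside it. The third lowest, on 2L from 2661744 to 2662132, scored 10.05 with 84233 and 88600 bp free. The 6 narrowest were 200 bp wide, the smallest width in the list, and scored 11.4 to 14.5. The 4 widest had quite unlike scores: 566.62 on 2L from 6647057 to 6649005, 1002.63 on 3L from 8819234 to 8821180, 728.96 on 3R from 18193932 to 18195825 and 271.69 on 2R from 3344734 to 3346624.

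The peaks just inside the width limit were those of 1949 and 1947 bp, with scores of 566.62 and 1002.63. Just outside were isolated peaks of 2043 bp on 2L (score 1705.47) and 2072 bp on 3L (582.41). In all, 45 isolated peaks were broad, and they scored from 353 to 1705.47, with a median of 1027. Just inside the gap limit, 2 neighbours on 2L stood 15003 bp apart, from 9256423 to 9256955 (score 182.02) and from 9271959 to 9272642 (296.83). Just outside, with gaps of 14975 and 14971 bp, were 2L 3631698 to 3633336 (1194.02) and 3L 2427093 to 2427711 (109.07).

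The free stretches around isolated peaks took in much of the arms. The smaller of the 2 gaps had a median of 24123 bp (22994 to 25255) and the larger a median of 48830 bp (44739 to 52368). Of the 661 peaks, 219 had 30000 bp or more on both sides, 70 had 50000 bp or more and 10 had 100000 bp or more. The 1063 gaps beside isolated peaks summed to 46.1 Mb, 50.3% of the 91.6 Mb between neighbouring autosomal peaks. The rule favours this large share, since it makes each of these gaps 15000 bp or more, against a median of 4831 bp for all autosomal gaps. The lengths of the left and right gap of a peak were nearly unrelated, with a Spearman rho of 0.07 across the 661 peaks. The rule admits only gaps of 15000 bp or more, so this does not describe neighbouring gaps along the arms at large.

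The most remote isolated peaks ranged from very weak to very strong. The largest smaller gap, 135484 bp, belonged to a 237 bp peak on 2L from 10593251 to 10593487 with a score of 10.74. The 881 bp peak on 2R from 19091385 to 19092265 had 123320 bp and a score of 166.48. The neighbour of the first, on 2L from 10756028 to 10757814, had 118791 bp and scored 665.42. On 3R the peak from 2419036 to 2419412 had 118403 bp and scored 45.18. The strong peak on 3L from 13106640 to 13107614, with 1518.87, had 112198 bp, and 3L 11930331 to 11930627 had 103751 bp and scored 42.11.

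Isolated peaks were often next to each other. Of their 1322 neighbours, 518 (39.2%, 36.6 to 41.8) were themselves isolated narrow peaks, which make up 11.1% of autosomal peaks. The rule builds much of this in, so 11.1% is not the share to expect among neighbours. The gap between 2 adjacent peaks counts for both. The neighbour of an isolated peak is therefore isolated too if its other gap also passes and it is narrow. Of all autosomal gaps, 30.3% were 15000 bp or longer. Whether the 39.2% exceeds what the rule gives was not tested. Another 17.1% of the neighbours belonged to tight groups, which hold 41.4% of autosomal peaks. The rule lowers this share too, since such a neighbour can be tight only through its other gap. A further 5.75% (4.62 to 7.14) were broad, against 7.74% of autosomal peaks. The nearest broad peak lay a median of 122029 bp away (110289 to 129956), against 74988 bp (69898 to 80969) for the peaks between and 60997 bp (57014 to 65731) for all other narrow peaks. The rule fixes part of this contrast, since it keeps every listed peak, broad ones included, at least 15000 bp away. An isolated peak outscored both its neighbours in 232 cases, 35.1% (31.6 to 38.8), and lay below both in 202, 30.6% (27.2 to 34.2). The intervals overlapped, so neither outcome could be called the more frequent for isolated peaks. For the other narrow peaks these shares were 27.6% (26.3 to 28.8) and 35.8% (34.5 to 37.2).

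The 661 peaks formed 402 runs of consecutive isolated peaks. Of these, 247 runs held 1 peak, 94 held 2 and 35 held 3, and 414 peaks, 62.6%, stood in runs of 2 or more. The rule favours such runs, since adjacent isolated peaks share a gap, and whether they exceed what the rule gives was not tested. There were 3 runs of 7 peaks. The longest, on 2L from 10208903 to 10757814, spanned 548.9 kb. Its 7 scores, in order along the arm, were 110.43, 28.37, 16.78, 321.95, 18.78, 10.74 and 665.42. Strong and weak peaks were thus mixed within this sparse stretch, and its 4 weakest members were all under 300 bp wide.

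The other long runs were shorter. The run on 2R from 17730483 to 18004150 spanned 273.7 kb, and its scores were 508.65, 573.41, 73.06, 108.96, 101.16, 225.39 and 101.34. The run on 3L from 8121107 to 8414640 spanned 293.5 kb with scores of 409.1, 396.11, 28.8, 133.47, 142.66, 101.84 and 15.95. A run of 6 on 2L from 7494442 to 7702174 had scores from 119.44 to 869.55, so none of its members was weak.

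Each arm gave a similar picture. The share of isolated peaks was 12.0% on 2L (10.4 to 13.9, 163 peaks), 9.51% on 2R (8.08 to 11.2, 132 peaks), 10.7% on 3L (9.27 to 12.3, 168 peaks) and 12.0% on 3R (10.6 to 13.7, 198 peaks). All 4 intervals overlapped. Per Mb of span, from the first to the last listed peak, isolated peaks numbered 7.08 on 2L, 6.24 on 2R, 6.85 on 3L and 7.10 on 3R. The median score was 138 on 2L, 114 on 2R, 157 on 3L and 150 on 3R, with overlapping intervals. On every arm it was above that of the other narrow peaks, which ran from 35.8 on 2L to 48.0 on 3L. Median widths ran from 542 bp on 3L to 570 bp on 3R.

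Along the arms, isolated peaks were spread from the telomere side to the centromere side. With each span cut into 5 equal parts, the share of isolated peaks was 12.1% (10.3 to 14.1) in the part nearest the telomere and 13.5% (11.6 to 15.6) in the next. It was 11.3% in the middle, 9.65% in the fourth and 9.45% (8.00 to 11.1) nearest the centromere. The number of isolated peaks was nearly even, from 124 to 151 per part. Listed peaks ran from 1105 in the middle part to 1333 nearest the centromere. On 2L the part nearest the centromere held 386 listed peaks, 150 of them from 21000001 to 22000000. The interval of the second part did not overlap that of the fourth (8.15 to 11.4) or that of the part nearest the centromere, but the arms did not share one course: the highest share was in the middle part on 2L (17.0%) and 3L (14.4%), in the second on 2R (14.2%) and in the first on 3R (14.9%).

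With the arms pooled, the median score of isolated peaks was lowest in the part nearest the centromere, 77.6 (54.9 to 124) from 126 peaks. In the other parts it ran from 133 to 194. Its interval overlapped those of all other parts, that of the middle part beginning at 123. The single arms were divided. The lowest median lay in that part on 2L (72.4) and 3L (67.8), but in the second part on 2R (88.9, against 91.2 nearest the centromere) and in the middle part on 3R (75.7, against 91.3). The pooled median of the other narrow peaks was 42.1 nearest the centromere and 40.4 to 52.0 elsewhere, while on 2L it too was lowest there, at 28.7.

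**Figure D4:**
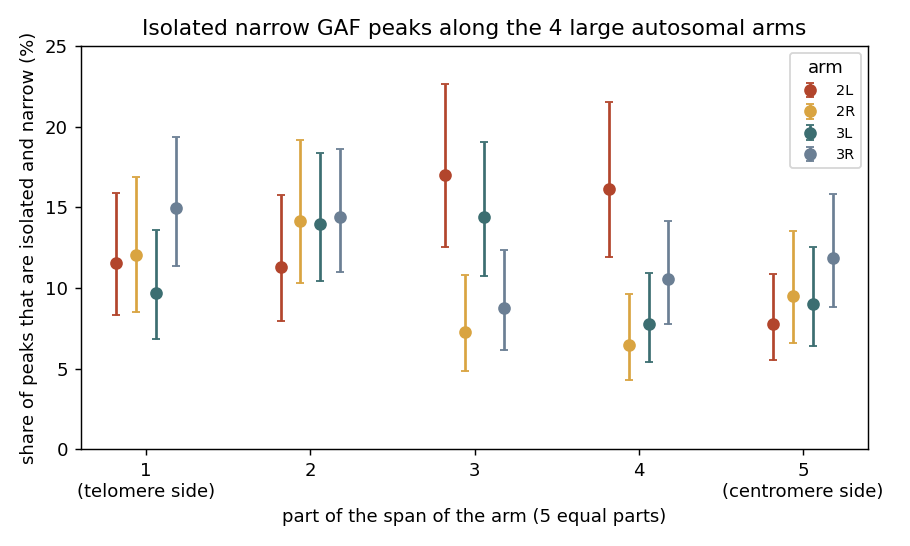
Percent of listed peaks that are isolated and narrow in each of 5 equal parts of the span of the 4 large autosomal arms, from the telomere side (1) to the centromere side (5), with 95% Wilson intervals. Shares run from 6.47% on 2R to 17.0% on 2L, and the arms differ in where their highest share lies.

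In windows of 1 Mb, isolated peaks numbered 7 at the median. Of 99 windows, 2 held 0, both at the end of a span, and the most was 14, on 3L from 12000001 to 13000000, where 35 peaks were listed in all. Windows with more peaks tended to hold slightly fewer isolated ones, with a Spearman rho of -0.27 across the 99 windows, a relation that the spacing rule favours.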

How the data were processed

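The authors deposited 1 peak list for 3 GAF ChIP and 3 input libraries. Per the file headers, positions are on FlyBase release 5. MACS2, BWA and CASAVA (1.7.0.2 and 1.7.0.3) are named with build BDGP5, per the submitters' processing notes. The deposited score of each peak is the authors' value. For its scale, the threshold of calling and how libraries were combined, details are not given in the sources used. The smallest start was 0, so starts are printed plus 1. No column of values per library was left unmatched.

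Width was end minus start, and a gap was the next start minus the previous end, measured to every listed peak of the sequence. Intervals are 95% Wilson for shares and binomial order statistics for medians. The rule was tested on simulated data. Named peaks were the 12 with the highest score, the highest on each arm, the 4 lowest, the 6 with the largest smaller gap, the narrowest, the 4 widest and 2 on each side of each limit. The long runs, width classes, gap classes and parts of the arms were chosen after the values were seen, and the members and lists with earlier results of these data known. No test was run, because score, width and spacing come from the same peak calls. Genes and sequences at the peaks were not analysed here. Computations used scipy 1.17.1, pandas 2.3.3 and numpy 2.4.6 in Python 3.11.15; plots used matplotlib 3.10.9.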

Additional observations from a re-analysis of the deposited data

How the results depend on the processing

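Over 5 results, 70 values under alternatives were computed, and the score difference between isolated and other narrow peaks stayed positive in all. The lower bound of this difference was -0.64 with peaks under 20 removed. It was 4.84 among peaks that reached the median score of the list. Of the 70, 42 stayed within 1.5 times for a count or within the main interval otherwise, and 28 moved. Other gap limits moved the number and share to 1039 peaks (17.4%) at 10000 bp, 440 (7.39%) at 20000 bp and 219 (3.68%, with a median width of 505 bp) at 30000 bp. With a width limit of 1000 bp the share was 9.12%, the median score 91.2, the median width 465 bp and the score difference 63.6. Among peaks that reached the median score of the list these were 26.2%, 355, 758 bp and 53.6. With peaks under 20 removed, an alternative added after the data were examined, they were 18.2%, 178, 621 bp and 38.4. Joining peaks under 500 bp apart gave a share of 14.9%. Single arms gave 163 peaks (12.0%) on 2L, 132 (9.51%, median score 114) on 2R, 168 on 3L and 198 (12.0%) on 3R. Fewer peaks by construction account for the arm counts. Other gap limits fix the direction of the shifts in number and share by construction. So does the width limit of 1000 bp for the share and the median width. The cause was not tested for the other shifts. Leaving out the 2 densest 100 kb windows, also added later, changed the score difference to 96.2 from 98.3. No paired analysis was possible because libraries have no values of their own here, and leaving out a replicate could not be done either. Depth is unknown, so the weakest detectable isolated peak cannot be stated.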

Other observations

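The same limits of width and gap, applied outside the large autosomal arms, found 158 isolated narrow peaks among the 1372 listed on X, a share of 11.5% (95% Wilson interval 9.93 to 13.3), close to the 11.1% of the autosomal arms. Their median score was 97.3 (63.7 to 138), against 59.8 for the other narrow peaks of X. On chromosome 4, 8 of 100 peaks met the limits, with a median score of 174 and an interval of 14.1 to 777 that leaves it undetermined at this number.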
